A study of Mus musculus with 3 samples.

Results

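The regions described here are 1130 places in the mouse genome where a peak of 5-methylcytosine (5mC) stood high in the list from Sham cardiomyocytes and low in the list from pressure-overloaded cardiomyocytes. They were chosen by measured values, namely the position of each peak in the deposited lists. A row fraction is the number of a peak's row divided by the number of rows in its list, so a small value stands for a place near the top. A Sham peak and a TAC peak on chromosomes 1 to 19 formed a one-to-one pair when they overlapped by at least 1 bp and neither overlapped another peak. Pairs with a Sham row fraction of at most 0.2 and a TAC row fraction above 0.5 are called falling pairs. They made up 1.30% of the 87116 one-to-one pairs and 4.57% of the 24746 pairs whose Sham peak lay in the first 20% of its list. The opposite rule gave 2502 rising pairs, 2.87% of all one-to-one pairs and 8.57% of the 29197 pairs whose TAC peak lay in the first 20%. The ratio of falling to rising pairs, 0.452, depends on how rank is counted, and the TAC list is the longer one. It was 1.00 when rank was counted among the one-to-one pairs alone.

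Methylated DNA immunoprecipitation (MeDIP-seq) was carried out on cardiomyocytes that had been isolated from 8-week-old C57Bl6/J males. One group was Sham and the other was TAC, the pressure-overload group, which the series title places at 1 week. Each group has 1 library, and an Input library without antibody served peak calling. The sources used here do not say whether animals were pooled. Every difference below is therefore one between 2 libraries, with no replicate check and no test. The Sham list holds 135886 peaks from 12585289 tags and the TAC list 162107 peaks from 14658177 tags, with 29.88% and 34.67% of tags in peaks.

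5mC in mammals sits mostly on cytosines followed by guanine (CpG), and DNA methyltransferases write it while TET enzymes oxidise it. Transcribed gene bodies and repeats usually carry it, whereas CpG-rich promoters of active genes usually do not. In cardiomyocytes the gene bodies of sarcomere and other heart genes are known to lose methylation as the cells mature. MeDIP reports how many methylated fragments the antibody pulled down over a stretch, not the methylated share of each cytosine.

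The falling pairs seldom lay over annotated transcription starts, and the few that did are shown first because there the underlying sequence is at hand. Among 1082 falling pairs on the chromosomes with promoter sequences used here, 18 (1.66%) overlapped a promoter window, the 250 bases before to 50 after a start. Of the 8 protein-coding promoters among them, 6 had all 250 upstream bases inside the Sham peak, and 5 of those 6 had no upstream base inside the TAC peak. The other 13 of the 21 promoters under falling pairs belong to non-coding genes, and of the 4 that were wholly inside the Sham peak none lost all its upstream bases in TAC. Over all 21, then, 10 were wholly inside the Sham peak, 5 of these had no base in the TAC peak and 1 was wholly inside it. Among held pairs, which lay in the first 20% of both lists, 60 protein-coding promoters were wholly inside the Sham peak and 3 of them had no base in the TAC peak. Over all promoters under held pairs these numbers were 165 and 13. The overlaps come from the contrast that chose the pairs and describe them. The 5 upstream stretches follow, 5′ to 3′ on the strand of the gene, from RefSeq GRCm38.p6, the assembly that mm10 names, with every CpG in capitals.
Trim52: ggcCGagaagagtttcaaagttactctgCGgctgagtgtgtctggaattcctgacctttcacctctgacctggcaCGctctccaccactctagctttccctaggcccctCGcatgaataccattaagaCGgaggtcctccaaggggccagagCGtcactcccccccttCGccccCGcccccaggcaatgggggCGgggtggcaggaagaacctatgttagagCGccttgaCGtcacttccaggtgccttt
Wfdc15b: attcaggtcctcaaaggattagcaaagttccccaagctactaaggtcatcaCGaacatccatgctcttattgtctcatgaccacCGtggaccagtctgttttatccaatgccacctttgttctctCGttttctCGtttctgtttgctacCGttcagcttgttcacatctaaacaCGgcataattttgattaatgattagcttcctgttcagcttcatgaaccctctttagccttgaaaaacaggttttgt
Tbx1: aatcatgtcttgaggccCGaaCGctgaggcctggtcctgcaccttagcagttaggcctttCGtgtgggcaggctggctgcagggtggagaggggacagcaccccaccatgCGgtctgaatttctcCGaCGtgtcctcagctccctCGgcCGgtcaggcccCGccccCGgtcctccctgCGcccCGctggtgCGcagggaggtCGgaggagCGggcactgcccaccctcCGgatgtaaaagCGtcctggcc
Cacng6: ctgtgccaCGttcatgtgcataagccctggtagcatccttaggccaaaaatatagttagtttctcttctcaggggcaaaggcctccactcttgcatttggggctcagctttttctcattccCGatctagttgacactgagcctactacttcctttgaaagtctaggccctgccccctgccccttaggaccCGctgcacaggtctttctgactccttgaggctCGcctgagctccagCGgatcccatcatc
Tanc1: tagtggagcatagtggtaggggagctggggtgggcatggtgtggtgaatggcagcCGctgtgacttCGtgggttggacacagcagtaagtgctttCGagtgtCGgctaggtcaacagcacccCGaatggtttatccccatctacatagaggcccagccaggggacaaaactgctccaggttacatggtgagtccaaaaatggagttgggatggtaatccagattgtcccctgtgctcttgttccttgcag

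Trim52 encodes a member of the tripartite-motif family. The stretch, chr14:106105948-106106197 on the plus strand, holds 11 CpG and ends at the annotated gene start. Its Sham peak had 76 inferred tags across 1946 bp, its TAC peak 16 across 501 bp. An inferred tag number is read from the order of the list, which runs through blocks of descending strength, and is described under the processing. Wfdc15b encodes a WAP-domain protein, and its stretch at chr2:164221664-164221913 on the minus strand holds 6 CpG. Its inferred tags numbered 57 in Sham against 15 in TAC.

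Tbx1 encodes the T-box factor needed for the cardiac outflow tract. Its stretch, chr16:18588900-18589149 on the minus strand, was the richest of the 5 with 17 CpG, and the start lies 1772 bp inside the 5′ edge of the gene. The Sham peak spanned chr16:18588588-18589896 with 55 inferred tags, and the TAC peak spanned chr16:18589398-18589898 with 14. Row fractions moved from 0.0928 to 0.816. The TAC peak lay wholly upstream of the printed stretch, so neither the stretch nor the start was inside it.

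Cacng6 encodes a gamma subunit of voltage-gated calcium channels and Tanc1 a scaffold protein of the synapse. Their stretches, chr7:3424412-3424661 and chr2:59646519-59646768, both on the plus strand, hold 5 CpG each and precede starts 1074 and 34948 bp inside the gene. Over Cacng6 the Sham peak had 53 tags and the TAC peak 13, and over Tanc1 49 and 12. At the other 3 protein-coding promoters the TAC peak still reached the upstream bases. It covered 144 at S100a3, where the Sham peak covered 250, 46 at Abr against 177 in Sham, and 88 at Shisal2a against 59 in Sham. These starts lie 26596, 113905 and 3128 bp inside the 5′ edges of their annotated genes. Of all the protein-coding starts described here, only those of Trim52 and Wfdc15b lie at the annotated 5′ edge.

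The protein-coding promoters under falling pairs had a median of 9 CpG in 300 bases, over 8 promoters. The median was 11 over 129 promoters under held pairs, 8 over 442 promoters under all one-to-one pairs, and 14 over all 20085 protein-coding promoters on the chromosomes used. With 8 promoters, the value for falling pairs cannot be set apart from those for held pairs or all pairs.

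Falling pairs were one fate among several for the strongest Sham peaks. Of the 26988 autosomal Sham peaks in the first 20% of the list, 69.7% kept a one-to-one TAC partner in the first 20%, and 17.8% had a partner with a TAC row fraction between 0.2 and 0.5. A falling partner was found for 4.19%. No TAC peak overlapped 4.42%, several TAC peaks overlapped 2.63%, and 1.26% shared a TAC peak with another Sham peak. Only 91 strong Sham peaks, 0.337%, had a one-to-one partner beyond a row fraction of 0.9.

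**Figure D1:**
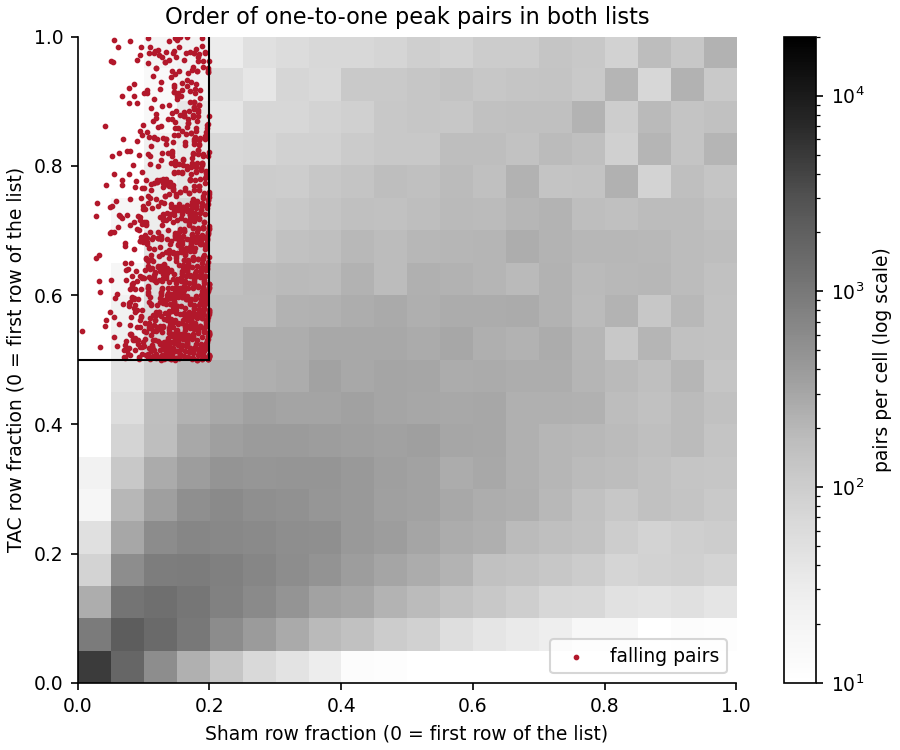
Row fraction of each one-to-one pair in the Sham list (horizontal axis) and in the TAC list (vertical axis), with 0 at the first row; grey cells give the number of pairs on a log scale and red points the 1130 falling pairs inside the black lines. The falling pairs crowd toward the corner of both thresholds, at a Sham row fraction of 0.2 and a TAC row fraction of 0.5.

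Just inside the Sham threshold lay pairs in Nfasc, Gpr39 and Gli2, with Sham row fractions between 0.199918 and 0.199976. Just outside it lay pairs near Ptpn7 and in Smyd3 and Cnih3, between 0.200006 and 0.200219. All 6 Sham peaks had 34 inferred tags. At the TAC threshold the nearest inside were a pair in Ripor2 and pairs nearest to Nrn1 and Id4, with TAC row fractions between 0.500022 and 0.500299. The nearest outside were pairs nearest to Flrt2, Slc38a6 and Frmd6, between 0.499263 and 0.499577. All 6 TAC peaks had 21 inferred tags, so both lines divide peaks of equal inferred strength, and order within such a block follows position. The Sham line admitted 57 of the 1349 peaks in its block, all on chromosome 1, and the TAC line 1311 of 4608, from chromosome 13 on. These blocks supplied 10 and 57 falling pairs.

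The TAC peaks of falling pairs were short, as peaks of that rank mostly were. Their Sham peaks had a median width of 1067 bp (95% interval of the median 1026 to 1106, n = 1130) and the TAC peaks one of 501 bp, the commonest width in the lists. Held pairs had medians of 793 bp in Sham and 785 bp in TAC. The TAC peak was exactly 501 bp in 80.1% of falling pairs and in 7.45% of held pairs. It was narrower than the Sham peak in 92.4% and 49.2%, and wider in 23 falling pairs. Width follows rank throughout both lists: 89.6% of all TAC peaks with a row fraction above 0.5 were 501 bp wide, and 8.85% of those in the first 20%. The 80.1% of falling pairs was below that share, so short TAC peaks are not particular to them. These widths come from the contrast that chose the pairs and describe them.

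**Figure D2:**
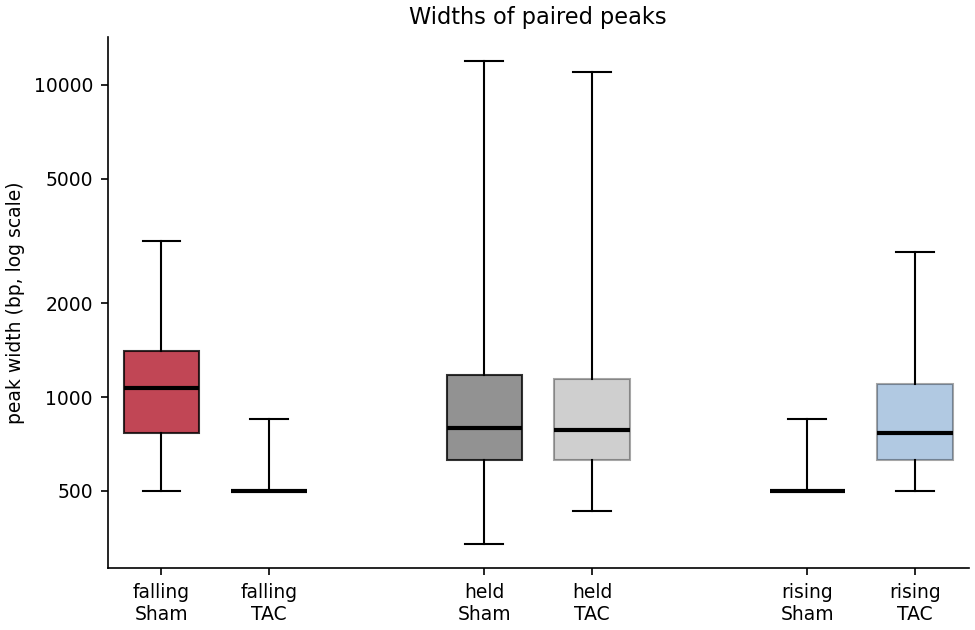
Widths in bp (log scale) of the Sham and TAC peaks of falling, held and rising pairs. The TAC peaks of falling pairs collapse onto 501 bp while their Sham peaks have a median of 1067 bp, and rising pairs show the opposite, with 501 bp in Sham and 768 bp in TAC.

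In 55.8% of falling pairs the TAC peak lay wholly inside the Sham peak, against 21.2% of held pairs. A TAC peak that covered at most 50% of its Sham peak was seen in 53.5% of falling pairs and 3.74% of held pairs. The Sham peaks of all falling pairs added up to 1264 kb and the TAC peaks to 601 kb. A median of 554.5 bp of the Sham peak was left outside the TAC peak, and the midpoints were a median of 199.5 bp apart.

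Inferred tags are the order of the list in other units, so the rule fixes them. A falling pair must have 34 or more in Sham and 21 or fewer in TAC, and a held pair many in both. Inferred tags had a median of 41 in Sham (range 34 to 171) and of 17 in TAC (range 9 to 21). Scaled for total tags, the median TAC to Sham ratio was 0.340, and it was 1.04 in held pairs. Per kb of peak and 10000000 tags, the median fell from 31.6 to 21.6, and the median of the paired ratios was 0.644, and it was 1.05 in held pairs. Density was lower in TAC in 88.8% of falling pairs and 43.4% of held pairs. These values describe the pairs chosen and support no difference.

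With tags fixed by the rule and most TAC peaks at 501 bp, the balance of width and density depends on the Sham width. In the 208 falling pairs with a Sham peak above 1500 bp, the median scaled tag ratio was 0.271 while the density ratio was 0.890. In the 70 falling pairs whose Sham peak was 501 bp, the density ratio was 0.376. Among strong Sham pairs, the share that fell was 3.01% for Sham peaks up to 501 bp, 2.46% for wider ones up to 700 bp and 4.12% from there to 1100 bp. It was 8.38% in the next class, up to 1500 bp, 7.54% up to 2000 bp and 4.55% above 2000 bp. The loss of enriched width and the loss of tags per base cannot be told apart by rank alone.

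The strongest Sham peak that fell lay in Smyd3, a lysine methyltransferase gene, at chr1:179425155-179428313. It was 3159 bp wide with 171 inferred tags, and the TAC peak at its left edge was 645 bp wide with 19. The scaled ratio, 0.0954 (95% interval 0.0561 to 0.154), was the lowest of all falling pairs. The ranks that chose the pair fix a low ratio, so the interval supports no difference. Ltbp3, which encodes a binding protein of latent TGF-beta, followed with 101 tags in Sham and 17 in TAC. Auts2, whose product is found with Polycomb complexes, and Grk6, a kinase of G-protein-coupled receptors, both had 98 and 15. In each of these 4 genes the TAC peak kept under 20% of the scaled Sham tags.

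The remaining 6 of the 10 strongest Sham peaks that fell were as follows. Ksr1, a scaffold of the RAF and MEK kinases, went from 83 tags in Sham to 13 in TAC. Dok3, an adaptor of immune receptors, had 92 and 18, and Mad1l1, of the spindle checkpoint, had 90 and 20. Ripor3 had 93 and 17, Fbxl18, an F-box gene, had 82 and 19, and a pair 6.56 kb from Rd3, a photoreceptor gene, had 92 and 16. These 10 pairs were named by their Sham tags after the values had been seen.

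By the size of the drop in rank, the pair in Sdk1, a cell adhesion gene of the sidekick family, came first. Its Sham peak, chr5:141617766-141620061, stood at a row fraction of 0.0544 with 72 tags over 2296 bp, and its TAC peak, chr5:141618483-141618983, at 0.995 with 10 tags. Next was a pair 124 kb from Fut8, the core fucosyltransferase gene, with 68 and 11 tags over 2556 and 501 bp. Nkain1, which encodes a partner of the sodium pump, had 59 and 10 tags, and Tmem132a had 75 and 12. All 4 TAC peaks were 501 bp wide.

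The other large drops lay in genes of varied function. Slc8b1, the mitochondrial sodium-calcium exchanger, had 48 tags in Sham and 11 in TAC, and Cygb, a globin that binds oxygen, had 54 and 11. Sh3pxd2a, a podosome scaffold, had 56 and 12, Git2, which encodes an Arf GTPase-activating protein, 50 and 11, Sipa1l3 48 and 11, and Slx4ip 43 and 10. A pair in the protocadherin gamma cluster had 73 and 12. Outside protein-coding genes, the largest drops lay 13.6 kb from 2510009E07Rik (51 and 10 tags), 80.8 kb from Ankrd50 (54 and 11), 18.2 kb from Tha1 (50 and 11) and 109 kb from Tomm20, a mitochondrial import receptor (47 and 11). Of these 15 drops, 14 had a TAC peak of 501 bp.

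Falling pairs lay in genes more often than held pairs did. The Sham midpoint was inside an annotated gene in 69.3% of falling pairs (783 of 1130, 95% interval 66.5 to 72.0), 58.2% of held pairs and 44.0% of rising pairs. For protein-coding genes the shares were 59.6%, 48.1% and 35.7%. When held pairs were reweighted to the Sham row fractions and Sham widths of the falling pairs, their shares were 57.6% and 47.4%. The match was coarse, with row fraction bins of 0.05 and width classes cut at 700 and 1100 bp. All wider peaks shared a single class, and what sets the gene shares apart was not tested. Intervals here are exact binomial and cover counting error only, and neighbouring peaks are not independent. In 7 ways of setting the thresholds and the overlap, the gene share was between 67.1% and 74.0% for falling, 57.9% and 58.3% for held, and 41.8% and 44.4% for rising pairs.

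Gene ends were also more frequent. A Sham peak within 1000 bp of an annotated end of a protein-coding gene was found in 6.73% of falling pairs (76 pairs, 5.34 to 8.35), 4.44% of held pairs, 4.22% after reweighting, and 1.76% of rising pairs. Within 1000 bp of a protein-coding transcription start the shares were 3.60% of falling pairs (39 of 1082, 2.58 to 4.89), 2.06% of held pairs and 0.993% of rising pairs. Overlap with the promoter window itself did not separate falling from held pairs, at 1.66% and 1.54%.

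Beyond the 5 genes shown by sequence, 15 more genes had a start beside the strongest of these pairs. P3h1, a collagen prolyl hydroxylase, had 55 tags in Sham against 19 in TAC, and Prelp, a small proteoglycan of the matrix, had 51 and 19. Slc45a3, a sugar transporter, had 53 and 20, and Slc30a3, a zinc transporter, 47 and 13. Susd4, a complement inhibitor, had 49 and 13, and Nfia, a transcription factor of the nuclear factor I family, 49 and 18. Rab19 and Cnga4, a small GTPase and a cyclic nucleotide-gated channel subunit, both had 49 and 20. Htr6, a serotonin receptor, had 48 and 12, Tmem150c 48 and 13, Pcare, a photoreceptor gene, 46 and 14, Deaf1, a transcription factor, 44 and 18, and Tex19.2, a germline gene, 43 and 12. At Tex19.2 the TAC peak reached the promoter window and the start, and the Sham peak did not. Tex19.2 is not in the germline list used below. At Shisal2a the values were 49 and 19 and at S100a3, of the S100 calcium-binding family, 46 and 17.

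Position within protein-coding hosts was close to that of held pairs. Of 519 falling pairs with a usable strand, with the gene cut into 3 equal lengths, 29.5% lay in the first, 31.8% in the middle and 38.7% in the last, against 31.5%, 32.8% and 35.7% of held pairs. Rising pairs had 35.2%, 35.2% and 29.5%. The median host was 92.8 kb long for falling pairs, 114 kb for held pairs and 152 kb for rising pairs. The longest annotated gene was taken as host where genes overlapped.

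The falling share varied modestly with the number of genes around the pair. Of strong Sham pairs in 1 Mb windows with no protein-coding gene 2.45% fell, and the share was 5.08% in windows with 21 or more genes. The share of strong TAC pairs that rose ran the other way, from 19.6% to 7.08%. Among strong Sham pairs above 1100 bp the falling shares were 4.71%, 7.56%, 8.53%, 8.01%, 7.17% and 7.37% from the emptiest to the fullest class, with no steady grade. Pairs in windows with at most 2 genes were 11.6% of falling pairs, against 14.5% of held and 30.1% of rising pairs. By chromosome the share of strong Sham pairs that fell ran from 3.70% on chromosome 2 (66 of 1783) to 7.0% on chromosome 19 (45 of 643, 5.15 to 9.25). The order within blocks moves with this range, since the TAC line admits peaks of 21 inferred tags only from chromosome 13 on, and its part in it was not tested.

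**Figure D3:**
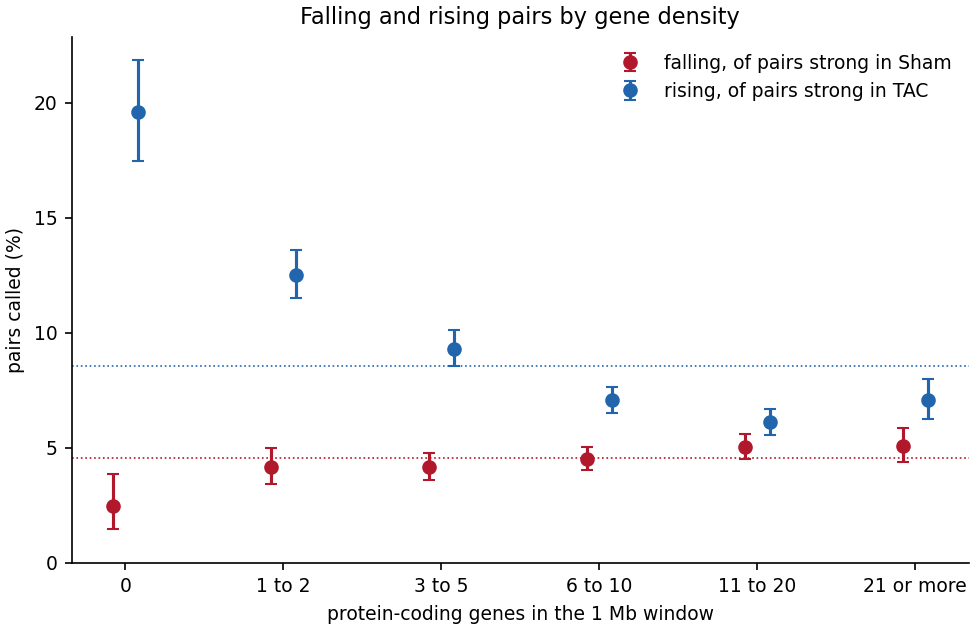
Share of strong pairs called falling (of Sham peaks in the first 20%) or rising (of TAC peaks in the first 20%) by the number of protein-coding genes in the 1 Mb window, in percent, with exact 95% binomial intervals for counting error. Falling shares stay between 2.45% and 5.08%, whereas rising shares drop from 19.6% in windows without genes to 7.08% in the fullest.

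Peaks around the falling pairs were also lower in TAC, by much less. Pairs within 10 kb that were themselves neither falling nor rising had a median log2 TAC to Sham ratio of inferred tags, scaled for depth, of -0.11 (95% interval -0.15 to -0.08, n = 1675). The same median was -0.01 around held pairs, 0.12 around rising pairs and 0.08 over all such pairs. Around falling pairs it was -0.14 within 2 kb, -0.05 within 50 kb and 0.00 within 200 kb. These neighbours are what remained once the rule had set falling and rising pairs apart. They were scored by the same list order from the same pair of libraries, so their values are a description and no independent support.

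**Figure D4:**
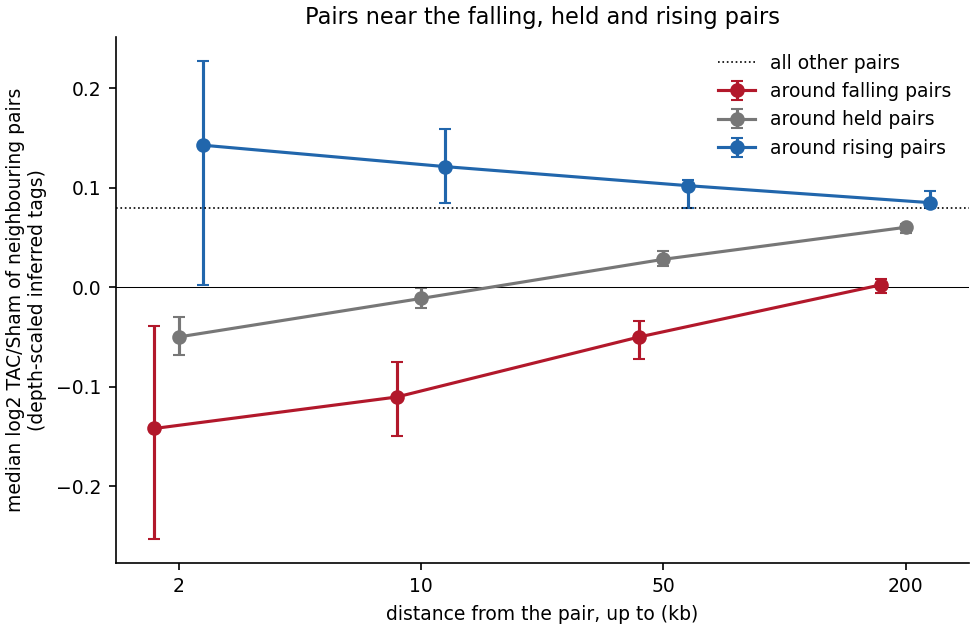
Median log2 TAC to Sham ratio of inferred tags, scaled for depth, of pairs up to 2, 10, 50 and 200 kb from falling, held and rising pairs, with 95% intervals of the median; the dotted line is the median of all pairs neither falling nor rising. Neighbours of falling pairs start at -0.14 and reach 0.00, below those of held pairs at each distance.

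Unshared peaks nearby leaned the same way. A Sham peak without a TAC overlap lay within 10 kb of 56.8% of falling pairs, 48.3% of held pairs (45.0% after reweighting) and 32.8% of rising pairs. A TAC peak without a Sham overlap lay within 10 kb of 45.1%, 48.5% and 47.8%. Counted as peaks, 943 unshared Sham peaks and 662 unshared TAC peaks lay near falling pairs, so 58.8% were from Sham (56.3 to 61.2). That share was 50.9% near held pairs and 39.3% near rising pairs, and over all unshared peaks it was 39.3% (45456 from Sham and 70213 from TAC). Held pairs, too, were thus above the share of all unshared peaks, and falling pairs further above it.

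Most falling pairs stood alone, as did most rising pairs. Within 50 kb, 14.2% of the 1130 falling pairs had another of their kind. The same share was 13.1% for the 2502 rising pairs and 73.7% for the 18814 held pairs, a far larger set. Standing alone is thus not particular to falling pairs. Joined within 100 kb they formed 985 loci, of which 868 held 1 pair, 94 held 2 and 23 held 3 or more. The fullest, chr17:46362794-46577460, had 5 falling, 7 held and 1 rising pair, with 7 unshared Sham peaks and 11 of TAC. It spans Zfp318, Crip3, Slc22a7, Ttbk1, Dnph1, Cul9, Srf and Ptk7. Its falling pairs lay in Ttbk1, Cul9 and Ptk7 and 20.1 kb from Zfp318, and none lay in Srf. The locus chr6:4617207-4739506, with 4 falling and 2 held pairs and 5 unshared Sham peaks against 3 of TAC, spans Casd1 and the imprinted gene Sgce. The locus chr4:63035463-63207148, across Zfp618, Ambp and Kif12, had 4 falling pairs and 7 held pairs, beside 13 peaks of Sham alone and 9 of TAC alone. The fourth, chr15:86345777-86412706, lay within Tbc1d22a and had 3 unshared Sham peaks and 1 of TAC. Unshared peaks were thus more often from Sham in 3 of the 4 loci and from TAC in the fullest.

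Tbc1d22a, which encodes a Rab GTPase-activating protein, held the most falling pairs of any protein-coding gene. Its 4 falling pairs had 36, 35, 44 and 35 tags in Sham against 21, 12, 13 and 19 in TAC. They stood beside 8 held pairs among 13 strong Sham pairs of the gene. Peaks of the gene without an overlap in the other list numbered 16 in Sham and 6 in TAC.

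Smyd3 held 3 falling pairs, with 171, 53 and 41 tags in Sham and 19, 15 and 19 in TAC. Its Sham values were far apart and its TAC values close together. The rule caps TAC tags at 21 and sets no upper bound in Sham. The gene had also 14 held pairs, no rising pair, 37 Sham-only peaks and 10 TAC-only peaks. Dock9, an activator of the GTPase Cdc42, had 38, 70 and 35 tags in Sham and 19, 15 and 18 in TAC, with 25 Sham-only peaks and no TAC-only peak. Glis1, a zinc finger transcription factor, had 36, 41 and 45 against 13, 12 and 14, with unshared peaks numbering 22 in Sham and 4 in TAC. In these 3 genes most of the unshared peaks were from Sham.

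Septin11, a cytoskeletal GTPase, had 41, 51 and 35 tags in Sham and 12, 14 and 11 in TAC, and only 2 of its 9 strong Sham pairs were held. Cux2, a homeobox factor, had 49, 36 and 65 against 20, 18 and 12, and its unshared peaks were 14 from Sham and 3 from TAC. Arl15, a small GTPase, had 42, 35 and 35 against 13, 12 and 21. Srgap1, a GTPase-activating protein of Slit and Robo signalling, had 39, 37 and 46 against 12, 15 and 16, beside 18 held pairs. All 12 TAC values of these 4 genes lay below all 12 Sham values, which the rule itself fixes.

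Rgs3, a regulator of G-protein signalling, had 35, 38 and 43 tags in Sham and 14, 19 and 19 in TAC. Rora, a nuclear receptor of the clock and of lipid metabolism, had 40, 41 and 38 against 16, 18 and 19. Ttc28 had 40, 47 and 44 against 12, 14 and 17. Wwox, a very long gene of an oxidoreductase, had 53, 42 and 40 against 14, 15 and 17, but 29 of its 43 strong Sham pairs were held. Rgs3, Rora and Wwox had nearly equal numbers of Sham-only and TAC-only peaks, 7 and 6, 32 and 31, and 53 and 52.

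Ctnna3, which encodes the alpha-T-catenin of the cardiac intercalated disc, was the exception among the 13. Its falling pairs had 41, 41 and 39 tags in Sham and 15, 20 and 19 in TAC. The unshared peaks of the gene leaned to TAC, with 54 from TAC against 20 from Sham. It also held 1 rising pair, as did Dock9 and Wwox. One of its Sham peaks, chr10:63585048-63585548, was 501 bp wide and narrower than the TAC peak of 635 bp.

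**Figure D5:**
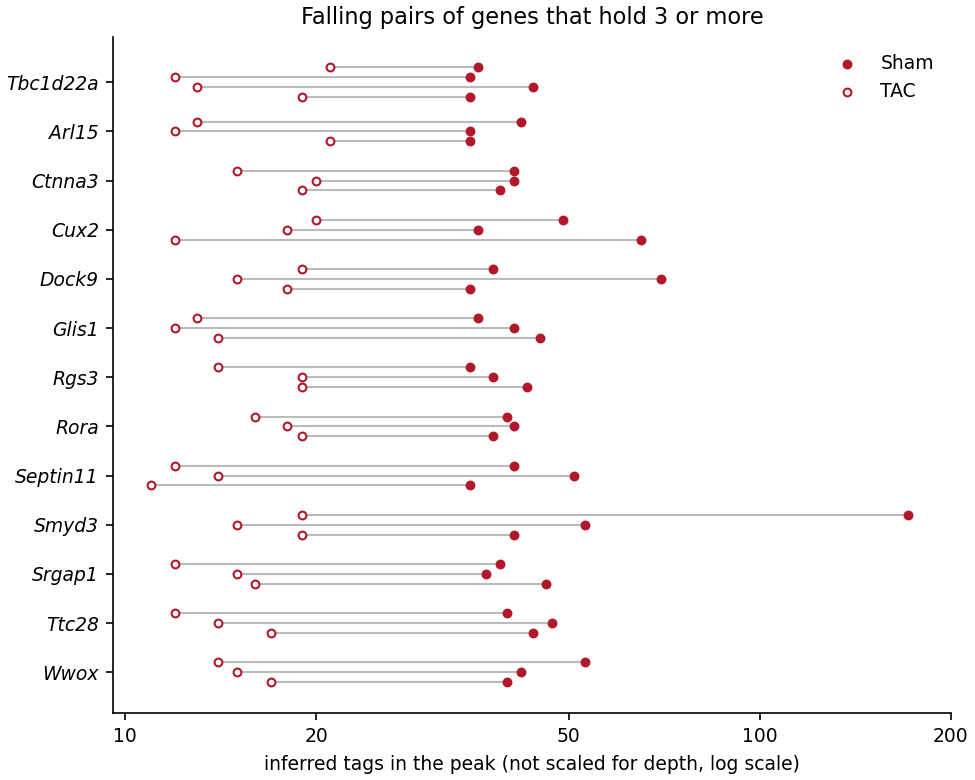
Inferred tags (log scale, not scaled for depth) in the Sham peak (filled) and the TAC peak (open) of each falling pair in the 13 protein-coding genes that hold 3 or more, joined by a line. Smyd3 has the widest gap, from 171 to 19 tags, and the TAC values lie between 11 and 21.

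Of the 5424 protein-coding genes with a strong Sham pair, 614 held a falling pair. Among the 614, 551 held 1 pair, 50 held 2, 12 held 3 and 1 held 4, and 81 also held a rising pair. With only the longest gene taken where genes overlapped, 596 of all 21887 protein-coding genes were hosts of a falling pair and 778 of a rising pair. Over all 614 genes the unshared peaks were 3499 from Sham and 3292 from TAC (51.5% from Sham), and the share over all protein-coding genes was 45.9%. Across the 63 genes with 2 or more, the unshared peaks were 817 from Sham and 541 from TAC (60.2% from Sham), and 46 genes had more Sham-only and 10 more TAC-only peaks. Genes with a held pair and no falling pair had 46.2% from Sham. Pairs that were neither falling nor rising had a median log2 ratio of -0.04 in the 614 genes and -0.12 (-0.18 to -0.07) in the 63. The median was 0.02 in genes with a held pair and no falling pair. Having several falling pairs favours genes with many strong Sham peaks, so these counts are descriptions.

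Among gene lists of heart and chromatin biology, few members held a falling pair. Over all protein-coding genes 691 of 12523 strong Sham pairs in genes fell (5.52%, a pair counted once for each gene it lies in). Of the hypertrophic signalling genes 4 of 95 strong pairs fell, 2 in Prkce, protein kinase C epsilon, and 1 each in Pde4d, a cAMP phosphodiesterase, and Igf1r, the IGF-1 receptor. Of the calcium handling genes 2 of 75 fell, both in Atp2b4, a calcium pump of the plasma membrane, with 41 and 51 tags in Sham and 17 and 15 in TAC. Of the cardiac transcription factors 1 of 46 fell, in Esrrb, an orphan nuclear receptor, with 49 and 20. Of the fatty acid and mitochondrial genes 1 of 24 fell, in Rxra, the retinoid X receptor, with 37 and 14.

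Prkce had 49 and 40 tags in Sham against 21 and 20 in TAC, Pde4d 46 against 18 and Igf1r 35 against 18. The hypertrophic list also held 13 rising pairs, the calcium list 11, the cardiac transcription factors 3 and the fatty acid list 2. Over all protein-coding genes there were 899 rising pairs beside the 691 falling ones. Pde4d itself held 2 rising pairs and Igf1r 1, while Prkce, Atp2b4, Esrrb and Rxra held none. None of the 12 strong pairs in sarcomere genes fell, nor any of 33 in ion channel genes, 4 in fetal and load-induced genes, 8 in genes of the DNA methylation machinery, 13 in germline genes or 2 in housekeeping genes. With so few strong pairs in a list the counting intervals are wide: for the sarcomere genes the upper bound was 26.5%. The interval of each of the 16 lists included 5.52%. The Polycomb and lysine methyltransferase list had 3 of 51, all in Smyd3.

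Imprinted genes, expressed mainly from a single parental copy, had 3 of 37. Methylation of each copy was not measured, and whether these pairs lie at imprinting control regions was not examined. Peg3, a paternally expressed zinc finger gene, had 69 tags in Sham and 20 in TAC at chr7:6707661-6708287, 627 bp against 501 bp. Sgce had 38 and 17, and Trappc9 45 and 21. The imprinted list also held 3 rising pairs, 1 of them in Trappc9. At Peg3 the width changed little, and the scaled tag ratio was 0.249 (0.143 to 0.414). Here too the rule fixes a low ratio, and the interval supports no difference.

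Markers of other heart cells were also among the genes with a falling pair. The smooth muscle and pericyte list had 3 of 33, with 54 and 36 tags in Sham against 15 and 19 in TAC in Notch3 and 40 against 20 in Pdgfrb. The endothelial list had 2 of 40, in Kdr, the VEGF receptor, with 50 and 16, and Erg, an ETS factor, with 36 and 14. The 2 list shares, 9.09% and 5.00%, had intervals that included the 5.52% over all protein-coding genes. Unshared peaks numbered 2 in Sham and 4 in TAC for Notch3 and 0 and 2 for Kdr. For Erg they numbered 10 and 5 and for Pdgfrb 2 and 0, and Pdgfrb also held 1 rising pair. The fibroblast list had 0 of 26 and the immune list 0 of 13. A 5mC peak is not expression and names no cell type, and the part of cell composition in these results was not tested. No listed gene had a falling pair at its ends.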

How the data were processed

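MeDIP-seq peaks from 1 Sham and 1 TAC library were analysed; the Input library was used by the authors in peak calling. The submitters' processing notes name build mm10 and the tools HOMER 4.5, Picard and BWA 0.7.4-r385. HOMER called peaks in each library separately, requiring at least 4-fold over input and using 500 bp peaks kept 1000 bp apart, per the file headers. The deposited lists give peak start and end positions. In the deposited score column each peak has the value 1, so peaks were ranked by file order. Clonal reads and stitching of nearby windows by the caller can change both the width and the place of a peak.

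Both lists run through blocks sorted by position. With 8 tags in the last block and 1 more per block, the sums reach 99.3% of the tags in peaks of both headers. No source used here states this reading. It puts 3.25% of peaks in each list below the headers' tag threshold, and it understates the strongest peaks. Ratios were scaled by total tags. Their intervals are exact and cover counting error only.

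Genes and promoters came from RefSeq tables of GRCm38.p6. Peaks were not read for sequence or for exons and introns. Analyses used Python 3.11.15 with numpy 2.4.6, pandas 2.3.3 and scipy 1.17.1, and were tested on simulated data. Held pairs had both row fractions at most 0.2. No test was run, because each group has 1 library. Genes were named by rule: the 15 largest drops, genes with at least 3 falling pairs, listed genes with a falling pair, the first 20 genes with one at a protein-coding start, and pairs beside each threshold. The members, lists and rules were chosen with earlier results of these data known.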

Additional observations from a re-analysis of the deposited data

How the results depend on the processing

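No paired analysis was possible because each group has 1 library. Of 88 values recomputed under alternative settings, 56 stayed close and 31 moved further. Close meant within the counting interval or, for the number of falling pairs, within 1.5 times it. The remaining 1, the ratio of falling to rising pairs, went from 0.452 to 1.00 when rows were counted among one-to-one pairs. That setting gave 1120 falling and 1119 rising pairs, which is parity and no turn of direction. There the share in protein-coding genes was 62.6%, at gene ends 8.84%, and the Sham width 1122 bp. With the TAC list shortened to the Sham number of peaks there were 1571 falling pairs, the ratio was 0.971, the Sham width 962 bp, the width ratio, 0.50 in the report, 0.590, and the share with a Sham-only peak nearby 59.8%. With an overlap of at least 50% of each peak, 526 falling pairs, a falling to rising ratio of 0.294, a Sham width of 760.5 bp, a width ratio of 0.767 and 60.8% with a Sham-only peak nearby were found. With a first row fraction of at most 0.1 there were 146 falling pairs, 74.0% in genes, 65.1% in protein-coding genes, a Sham width of 1598 bp, a width ratio of 0.332 and 67.8% with a Sham-only peak nearby. With a second row fraction above 0.6 the number was 716, the Sham width 1120 bp and the width ratio 0.461. Gene ends within 500 and 2000 bp gave 3.81% and 11.2%, gene-poor windows of 500 kb 28.2%, and Sham-only peaks within 5 and 20 kb 35.6% and 78.5%, as smaller or larger windows must. Alternatives added after seeing the data were whole blocks of equal tags (falling to rising ratio 0.504), any number of overlapping peaks, and tags per kb of at most 0.6 of Sham (479 pairs, ratio 0.297, Sham width 758 bp, width ratio 0.785). The causes of the other shifts were not tested. Depth limits single pairs: TAC peaks of 9 to 21 inferred tags leave wide counting intervals, and the deposited lists hold no signal outside peaks.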
